A study of Mus musculus with 8 samples.

Results

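Glutathione S-transferases are the enzymes that join the tripeptide glutathione to reactive molecules, and the 10 genes described here were all rows of the deposited expression table with the symbols Gsta3, Gsta4, Gstm1, Gstm2, Gstm5, Gstp1, Gsto1, Gstt1, Mgst1 and Mgst3. All 10 were present, among 19417 genes in the table, under the gene IDs 14859, 14860, 14862, 14863, 14866, 14870, 14873, 14871, 56615 and 66447 in that order. RNA was sequenced from primary cortical neuron cultures of C57BL/6 mice after 24 h with 1 of 4 treatments. The control group received the vehicle DMSO, the second group 10 µM 4-OI (4-octyl itaconate, a cell-permeable itaconate derivative used to activate the transcription factor NRF2), the third 50 µM hemin (the oxidised heme that blood releases as hemoglobin breaks down), and the last 50 µM hemin with 10 µM 4-OI. Each group had 2 libraries, and the labels do not say that these came from separate cultures, so each p-value reflects how these libraries scatter, which could be technical scatter alone. No genotype other than the strain was given, and the age entry in the labels repeats the treatment time.

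Conjugation with glutathione makes electrophiles such as lipid aldehydes more soluble and marks them for export from the cell. The soluble enzymes fall into classes named alpha (Gsta), mu (Gstm), pi (Gstp), omega (Gsto) and theta (Gstt), and a separate family of membrane proteins carries the Mgst names. Several members are textbook targets of NRF2, which binds antioxidant response elements in DNA, and in the brain much of the mu and pi class enzyme is found in glia. Values are FPKM, the fragments of a gene scaled by the authors to transcript length and library total, so levels can be compared between genes. Changes are differences of group means of log2(FPKM + 1) with the standard error of the model, which understate the change of genes with low FPKM.

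The labelled cell type was checked against marker genes. In the DMSO libraries 10 of 10 neuron markers had a mean of at least 1 FPKM, but so did 9 of 9 astrocyte, 7 of 9 microglia, 4 of 10 oligodendrocyte lineage, 4 of 7 fibroblast and meninges and 3 of 5 choroid plexus and ependyma markers, the last with summed levels of 91.2 and 97.1 FPKM, against 0 of 5 endothelial markers, of which Cldn5 was listed at 0 in both. Markers of several cell types were thus present, and fewer cells of a type and less RNA per cell cannot be told apart in these bulk libraries. Depth, estimated from the steps between low FPKM values, was 9.05 M to 10.45 M fragments per library, with 72.6% to 78.5% of the values used lying within 0.15 of a whole number of fragments. Hemin replicate 1 stood apart from Hemin replicate 2: its summed astrocyte markers were at 876 FPKM against 389.8 and its summed microglia markers at 339.8 against 109.6.

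The RefSeq promoter table (build GRCm38.p6, not the build named for the authors' alignment) had entries for 9 of the 10 genes, all but Gsta4. The core of the antioxidant response element, TGACNNNGC or GCNNNGTCA on the other strand, was searched in the 250 bases before each start, where it was present in 10.2% of 32851 promoters and 11.5% of 27025 genes. It was found in 3 of the 9 transferase genes. Those promoters are shown first, 5′ to 3′ on the gene's strand with the core in capitals, followed by a promoter of Gstm1, the most abundant transferase under hemin, and that of Mgst3, whose level moved the other way.
Gsta3 (chr1:21240335-21240584, plus strand): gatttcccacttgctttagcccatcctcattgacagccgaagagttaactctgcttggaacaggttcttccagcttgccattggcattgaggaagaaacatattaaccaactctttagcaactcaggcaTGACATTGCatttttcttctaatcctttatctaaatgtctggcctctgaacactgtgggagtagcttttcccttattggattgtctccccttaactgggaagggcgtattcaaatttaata
Gstm5 (chr3:107895604-107895853, plus strand): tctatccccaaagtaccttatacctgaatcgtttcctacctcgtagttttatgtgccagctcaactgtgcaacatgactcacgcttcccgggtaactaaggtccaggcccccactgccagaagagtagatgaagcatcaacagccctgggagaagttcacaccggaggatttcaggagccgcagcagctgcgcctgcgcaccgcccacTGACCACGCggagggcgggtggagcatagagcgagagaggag
Mgst1 (chr6:138140277-138140526, plus strand): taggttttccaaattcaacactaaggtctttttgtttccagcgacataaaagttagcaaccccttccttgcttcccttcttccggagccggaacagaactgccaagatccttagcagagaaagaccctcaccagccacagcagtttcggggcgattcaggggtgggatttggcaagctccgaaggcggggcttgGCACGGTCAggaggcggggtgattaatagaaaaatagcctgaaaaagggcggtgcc
Gstm1 (chr3:108017819-108018068, minus strand): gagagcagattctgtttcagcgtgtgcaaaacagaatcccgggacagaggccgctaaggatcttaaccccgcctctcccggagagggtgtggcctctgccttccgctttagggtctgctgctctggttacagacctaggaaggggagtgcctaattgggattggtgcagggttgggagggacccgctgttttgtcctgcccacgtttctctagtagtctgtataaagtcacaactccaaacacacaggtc
Mgst3 (chr1:167393842-167394091, minus strand): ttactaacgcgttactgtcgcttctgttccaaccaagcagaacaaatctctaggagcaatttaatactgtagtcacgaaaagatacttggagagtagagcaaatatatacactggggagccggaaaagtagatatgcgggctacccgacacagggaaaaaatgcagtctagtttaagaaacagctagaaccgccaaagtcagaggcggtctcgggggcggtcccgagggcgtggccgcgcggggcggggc
The core began 121 bases before the start in Gsta3, 42 before it in Gstm5 and 56 before it in Mgst1. The bases just after the start were found in a GENCODE transcript of the same gene for each window searched except that of Gsta3, so its listed start has no such check. Gstm1 and Mgst1 each had another listed start, and neither of those windows held the core. No match says only that these letters are not in this window.

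Without hemin, the order of levels was the same in the DMSO and 4-OI groups. Gstp1 came first, with 148.5 ± 7.66 FPKM in DMSO (SD, n = 2), followed by Mgst3 with 130.8 ± 6.22, Gstm1 with 79.5 ± 3.28, Gstm5 with 47.4 ± 1.59 and Gsto1 with 41.6 ± 2.35. The next pair, Gsta4 with 20.4 ± 5.47 and Mgst1 with 16.1 ± 2.13, overlapped in their library values and did not differ beyond their spread. Gstt1 (2.75 ± 1.22), Gstm2 (0.905 ± 0.474) and Gsta3 (0.115 ± 0.0495) were low, Gsta3 resting on about 2.09 and 1.04 estimated fragments in the DMSO libraries. With hemin Gstm1 led with 365 ± 153.8 FPKM, ahead of Gstp1 with 182 ± 51.7 and Gsta4 with 130.7 ± 49.7, and the library ranges of Gstp1 and Gsta4 overlapped. Below them, Gstm5 (75.8 ± 21.7), Mgst1 (69.7 ± 39.7) and Mgst3 (62.8 ± 3.78) overlapped one another.

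**Figure D1:**
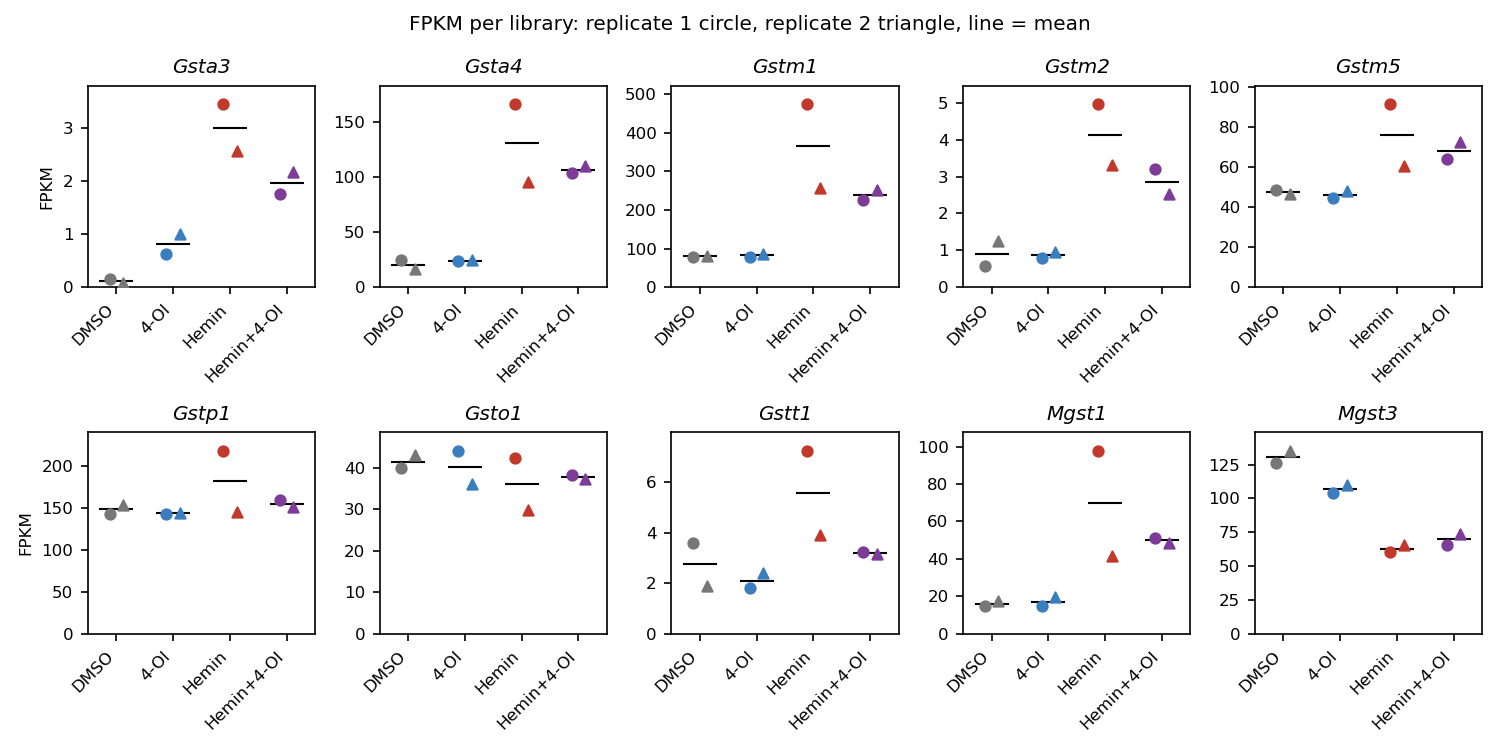
FPKM of each transferase (vertical axes, linear, from 0) in the 4 groups, with replicate 1 as a circle, replicate 2 as a triangle and the mean as a line. Mgst3 is lower in the hemin groups, while Gsta4, Gstm1 and Mgst1 are higher there, with Hemin replicate 1 the highest library for 8 of the 10 genes.

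Hemin against DMSO addressed how these genes respond to hemin. Of the 10 transferases 7 rose (Gsta3, Gsta4, Gstm1, Gstm2, Gstm5, Gstt1 and Mgst1), 1 fell (Mgst3), and Gstp1 and Gsto1 did not pass limma's test (adjusted p below 0.05 over all genes). Among all 13746 genes tested 38.7% rose and 22.6% fell (61.3% in either direction), and the median difference was 0.19, against 1.12 for the transferases. All 10 passed the filter on low values (1 FPKM in 2 libraries), but Gsta3 and Gstm2 reached it in fewer than 2 of the libraries without hemin, so their passing already favours a rise. Of the other 8 transferases 5 rose and 1 fell, beside 34.1% and 25.1% of the 12387 genes that passed without the hemin libraries. Hemin with 4-OI against 4-OI, which shares no library with that comparison, gave 6 higher and 1 lower, against 33.3% and 24.2% of all genes. Both comparisons took their error from the same fit of all 8 libraries, so their tests were not independent. The 6 and the 1 were called in both comparisons, and Gstt1 was the member that passed only with hemin alone (0.44 ± 0.29 with 4-OI present, limma adjusted p = 0.225). The difference between those changes of Gstt1, the interaction described further on, was −0.36 ± 0.41 (limma adjusted p = 0.882). Libraries under hemin lay above those under DMSO without overlap for the 7 that rose and below them for Mgst3, as for 48.2% and 31.2% of all genes. With 4-OI present 8 were higher without overlap, Gstp1 and Gstt1 among them, and Mgst3 was lower, as for 49.0% and 36.1% of all genes.

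Both alpha-class genes rose. Gsta4, whose enzyme is known for conjugating 4-hydroxynonenal, an aldehyde from lipid peroxidation, was at 24.3 and 16.5 FPKM under DMSO, 23.5 and 24.5 under 4-OI, 165.9 and 95.5 under hemin, and 103.5 and 109.7 under both. Every library with hemin lay above every library without it, and Gsta4 rose by 2.59 ± 0.25 (limma adjusted p = 9.18e-05), which is 6.04-fold on FPKM + 1, the largest of the 10 on this scale. With a pseudocount of 0.1 the order turned, with Gsta3 at 3.86 (limma adjusted p = 9.51e-05) and Gsta4 at 2.65 (limma adjusted p = 9.51e-05). With 4-OI present the rise was 2.10 ± 0.25 (limma adjusted p = 0.000242). Gsta3, known in the mouse for conjugating aflatoxin epoxide, was at 0.15 and 0.080 FPKM under DMSO, 0.62 and 1.01 under 4-OI, 3.45 and 2.57 under hemin, and 1.75 and 2.17 under both. Its groups followed each other without overlap in that order of DMSO, 4-OI, both and hemin. Gsta3 passed the filter on low values only through libraries with hemin, which favours a rise. The change with hemin was 1.84 ± 0.19 (limma adjusted p = 0.000142), and 0.71 ± 0.19 with 4-OI present (limma adjusted p = 0.0140), a call lost with quantile normalization and without 4-OI replicate 1 or Hemin+4-OI replicate 2. About 47.5 and 34.1 fragments stood behind Gsta3 in the hemin libraries, and the few behind it under DMSO allow no stable ratio.

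The mu-class genes rose by unequal amounts. Gstm1, a mu enzyme abundant in liver and in astrocytes, was at 77.1 and 81.8 FPKM under DMSO, 78.1 and 86.6 under 4-OI, 473 and 256 under hemin, and 224 and 251 under both. Libraries with and without hemin did not overlap, and Hemin replicate 1 was far above the rest. Gstm1 rose by 2.12 ± 0.24 (limma adjusted p = 0.000183), which is 4.34-fold on FPKM + 1, and by 1.52 ± 0.24 with 4-OI present (limma adjusted p = 0.000985). Gstm2 was at 0.57 and 1.24 FPKM under DMSO, 0.78 and 0.95 under 4-OI, 4.96 and 3.32 under hemin, and 3.20 and 2.52 under both, again without overlap between libraries with and without hemin. Within the limit that it passed the filter only through those libraries, it rose by 1.44 ± 0.24 (limma adjusted p = 0.0011) and by 1.05 ± 0.24 with 4-OI present (limma adjusted p = 0.00581). Gstm5, a mu enzyme of brain and testis, was at 48.5 and 46.2 FPKM under DMSO, 44.2 and 47.8 under 4-OI, 91.2 and 60.5 under hemin, and 63.6 and 72.3 under both. Its libraries with hemin also lay above those without, and it rose by 0.64 ± 0.17, or 1.56-fold on FPKM + 1 (limma adjusted p = 0.0121), and by 0.55 ± 0.17 with 4-OI present (limma adjusted p = 0.0247). The last call was lost when scaled by median of ratios (limma adjusted p = 0.0677) and without either 4-OI or either Hemin+4-OI library (limma adjusted p from 0.0581 to 0.141), and the call under hemin alone without DMSO replicate 2 (limma adjusted p = 0.0662).

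These genes are neighbours. In RefSeq's order of protein-coding genes Gstm5, Gstm7, Gstm6, Gstm3, Gstm2, Gstm1 and Gstm4 follow one another on chromosome 3. The ratio of Gstm1 to Gstm5, which does not depend on how libraries are scaled, was 1.59 and 1.77 under DMSO, 1.77 and 1.81 under 4-OI, 5.19 and 4.23 under hemin, and 3.52 and 3.48 under both. Within this run of genes Gstm4 rose by 0.65 ± 0.20 under hemin (limma adjusted p = 0.0223). Gstm6, which passed the filter on low values only through libraries with hemin, rose by 1.48 ± 0.31 (limma adjusted p = 0.0038). Gstm7, at 4.96 and 5.48 FPKM under DMSO and 8.93 and 6.26 under hemin, did not pass (limma adjusted p = 0.0782), and Gstm3 was too low to test. Of the 50-base windows in the Gstm1 transcript 23.2% also occur in transcripts of other genes, and 9.36% of those in Gstm2, so the split of reads between these copies is uncertain, while Gstm5 shares 0%.

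Gstp1, the pi-class enzyme and the most abundant transferase without hemin, was at 143.1 and 154.0 FPKM under DMSO, 143.1 and 144.0 under 4-OI, 218 and 145.2 under hemin, and 159.2 and 151.4 under both. The hemin and DMSO groups overlapped, with 1 high library, and the difference of 0.26 ± 0.17 did not pass (limma adjusted p = 0.202). It was 0.55 with Hemin replicate 1 as the only hemin library (limma adjusted p = 0.000132) and −0.032 with Hemin replicate 2 as the only one (limma adjusted p = 0.684). Gstp1 shares 62.3% of its windows with its neighbour Gstp2, which was at 3.74 to 9.46 FPKM over the 8 libraries, so the split of reads between these copies is uncertain. Gsto1, the omega-class enzyme that reduces dehydroascorbate, was at 39.9 and 43.2 FPKM under DMSO, 44.2 and 36.1 under 4-OI, 42.3 and 29.8 under hemin, and 38.4 and 37.3 under both. Its groups overlapped and the difference with hemin was −0.22 ± 0.16 (limma adjusted p = 0.273). Scaling by median of ratios (−0.45, limma adjusted p = 0.0427) and leaving out Hemin replicate 1 (−0.47, limma adjusted p = 0.00629) called Gsto1 lower.

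Gstt1, the theta-class enzyme that acts on small halogenated compounds, was at 3.61 and 1.89 FPKM under DMSO, 1.80 and 2.40 under 4-OI, 7.25 and 3.91 under hemin, and 3.22 and 3.15 under both. Hemin libraries were above the DMSO libraries, whose own values differed widely. The change of 0.80 ± 0.29 was the closest to the threshold of those that rose (limma adjusted p = 0.041), and it was not called in 10 of the alternatives, among them the removal of the filter (limma adjusted p = 0.0761), the scaling by median of ratios (0.62, limma adjusted p = 0.0871) and leaving out Hemin replicate 1 (0.43, limma adjusted p = 0.182).

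The membrane-bound transferases moved in opposite directions. Mgst1, an enzyme of the endoplasmic reticulum and outer mitochondrial membrane that also reduces lipid hydroperoxides, was at 14.6 and 17.6 FPKM under DMSO, 14.7 and 19.4 under 4-OI, 97.8 and 41.6 under hemin, and 51.0 and 48.6 under both. Libraries with hemin were all higher, and the hemin pair differed 2.35-fold, more than for any other of the 10. Mgst1 rose by 1.93 ± 0.33, or 3.81-fold on FPKM + 1 (limma adjusted p = 0.00137), and by 1.51 ± 0.33 with 4-OI present (limma adjusted p = 0.00514). Mgst3, a relative in the same membrane family, was at 126.4 and 135.2 FPKM under DMSO, 104.3 and 109.96 under 4-OI, 60.1 and 65.4 under hemin, and 65.7 and 73.6 under both. It was the only transferase of the 10 with every library with hemin below every library without it. It fell by 1.05 ± 0.10 on the log2 scale (limma adjusted p = 7.93e-05), and with 4-OI present by 0.62 ± 0.10 (limma adjusted p = 0.000989).

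**Figure D2:**
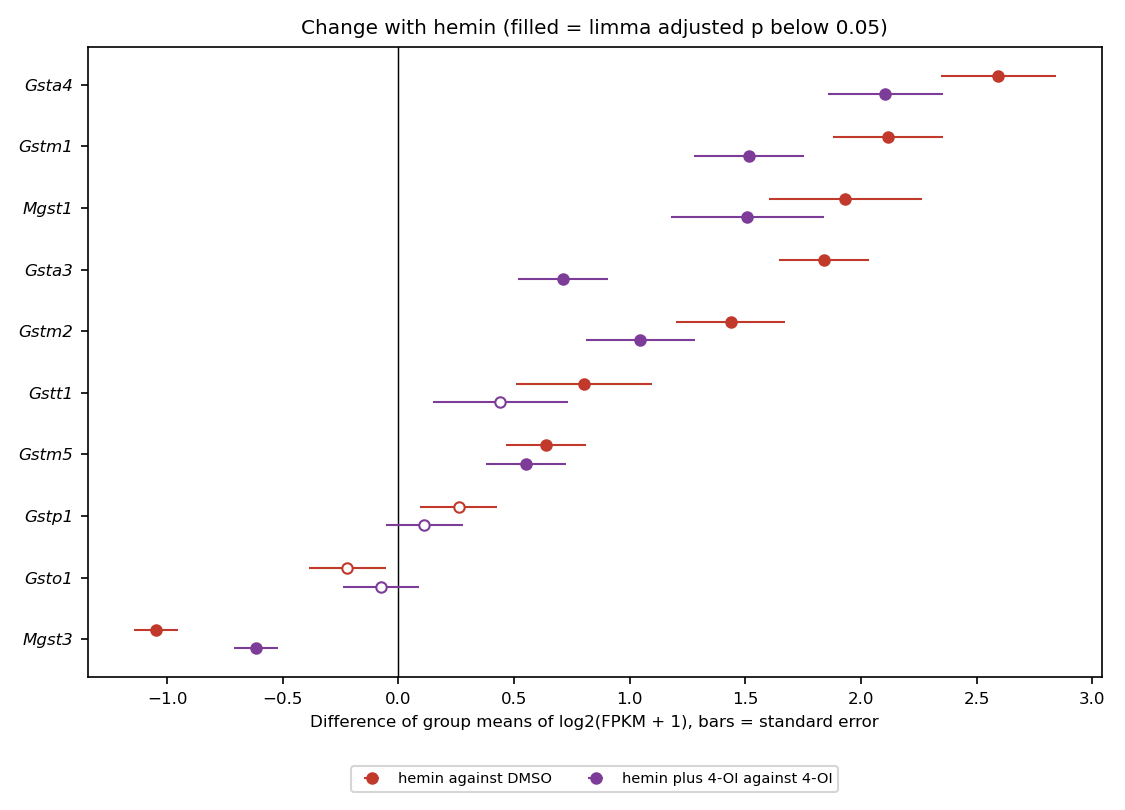
Difference of group means of log2(FPKM + 1) with its standard error for hemin against DMSO (red) and hemin plus 4-OI against 4-OI (purple), filled where the limma adjusted p was below 0.05. The 2 comparisons share no library, but their standard errors come from the same fit of all 8 libraries. On this scale Gsta4 has the largest rise (2.59 and 2.10) and Mgst3 the only called fall (−1.05 and −0.62).

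The scaling of the libraries bears on the small changes. Median-of-ratios scaling and quantile normalization moved the median of all genes from 0.19 to −0.015 and −0.013, and with them 4204 genes rose and 4405 fell, or 3642 and 4037, in place of 5321 and 3110. For hemin plus 4-OI against 4-OI the counts were 3769 and 4117, or 3419 and 3825, in place of 4575 and 3332. Gsta3, Gsta4, Gstm1, Gstm2, Mgst1 and Mgst3 kept their calls for hemin against DMSO with both scalings. Gstm5 was at 0.41 with the first of them (limma adjusted p = 0.0565) and was called with quantile normalization, and Gstt1 was called with neither. In all 5 members rose and 2 fell with median-of-ratios scaling, and 6 rose and 1 fell with quantile normalization.

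The make-up of the transferase transcripts, a measure that no single factor per library alters, differed without overlap between libraries with and without hemin for 8 of the 10 genes, and no test was run on it. The shares of Gsta3, Gsta4, Gstm1, Gstm2 and Mgst1 were higher with hemin, those of Gstp1, Gsto1 and Mgst3 were lower, and those of Gstm5 and Gstt1 overlapped. The shares of a library add up to its whole, so large rises of some genes lower the shares of the others. The 8 of 10 has no count over all genes beside it, since shares are defined only within these 10. Gstm1 made up 16.3% ± 0.213 of the summed FPKM of the 10 genes under DMSO and 17.7% ± 0.816 under 4-OI, against 38.5% ± 3.03 under hemin and 32.4% ± 1.41 under both (SD, n = 2). Gsta4 went from 4.19% ± 1.24 and 5.18% ± 0.0155 to 13.9% ± 0.470 and 14.5% ± 0.0641. Mgst3 went the other way, from 26.8% ± 0.519 under DMSO and 23.1% ± 0.251 under 4-OI to 7.23% ± 2.93 and 9.50% ± 0.414. Gstp1 made up 30.4% ± 0.710 under DMSO and 19.7% ± 1.34 under hemin although its own level did not pass the test. The summed level was 478 and 498 FPKM under DMSO, 455 and 473 under 4-OI, 1165 and 704 under hemin, and 714 and 752 under both.

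**Figure D3:**
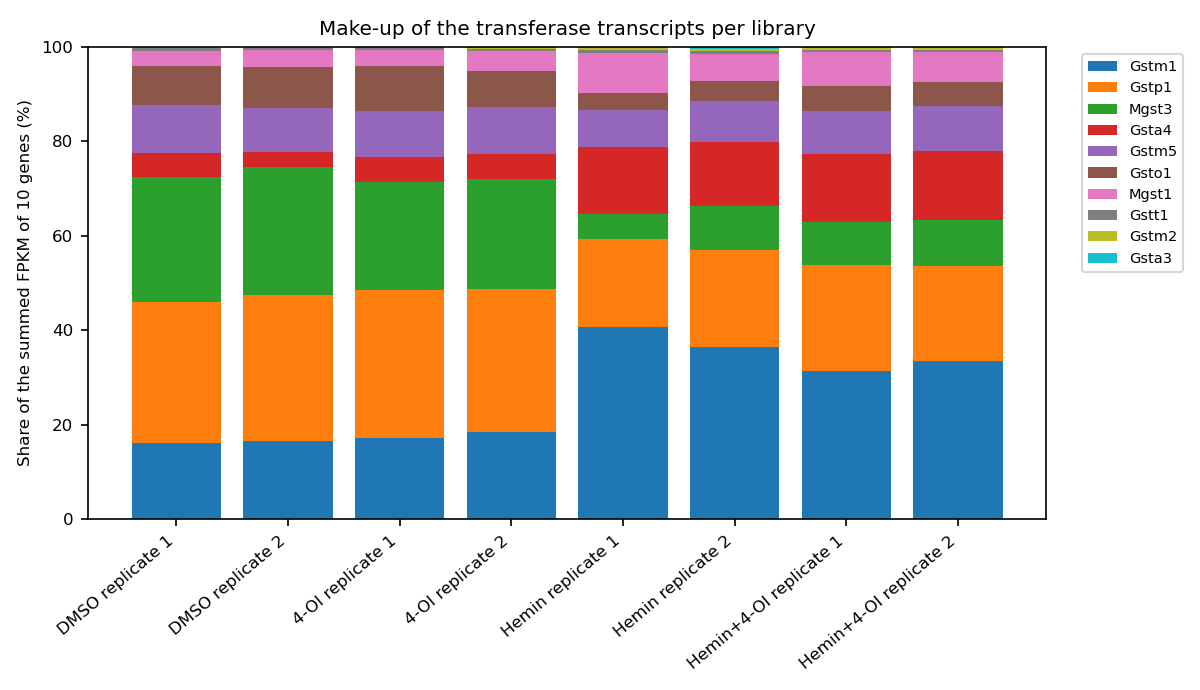
Share of each gene in the summed FPKM of the 10 transferases (vertical axis, percent) in each of the 8 libraries. Gstm1 takes 16.1% to 18.3% in the libraries without hemin and 31.4% to 40.7% in those with it, while Mgst3 takes 22.9% to 27.2% and 5.16% to 9.79%.

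4-OI against DMSO asked what 4-OI does to these genes without hemin. No transferase passed, as did no gene of the 13746 (0% called by limma), and 2 of the 10, Gsta3 and Mgst3, had an unadjusted p below 0.05, against 1.30% of all genes. Gsta3 differed by 0.70 ± 0.19 (limma adjusted p = 1), with 4-OI libraries at about 7.45 and 12.8 estimated fragments against 2.09 and 1.04. Mgst3 differed by −0.28 ± 0.10 (limma adjusted p = 1), and its 4-OI libraries lay below its DMSO libraries. The other 8 genes overlapped between the groups, with differences from −0.24 ± 0.29 for Gstt1 to 0.25 ± 0.25 for Gsta4. Over all genes 20.2% were higher and 14.9% lower without overlap, so 1 of 10 in each direction is below that background.

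Hemin plus 4-OI against hemin asked whether 4-OI alters the transferases under hemin, and the answer depended on 1 library. With both hemin libraries no transferase passed and no gene did (0%, limma). An unadjusted p below 0.05 was found for Gstm1, at −0.55 ± 0.24 (limma adjusted p = 0.556), and for 8.80% of all genes. The differences of the 10 ranged from −0.60 ± 0.29 for Gstt1 to 0.15 ± 0.10 for Mgst3, with 8 of them below 0. Gsta3, Gstm1, Gstm2 and Gstt1 were lower without overlap and Mgst3 higher, beside 20.2% and 14.4% of all genes. With Hemin replicate 1 as the only hemin library 6 transferases were lower with 4-OI: Gsta4 (−0.63), Gstm1 (−0.99), Gstm5 (−0.42), Gstp1 (−0.49), Gstt1 (−0.98) and Mgst1 (−0.96). In that setting 1872 genes rose (13.6%) and 2599 fell (18.9%) over the whole table. With Hemin replicate 2 as the only hemin library 6 of the 10 transferases lay above 0, with Gstm1 at −0.11 and Mgst1 at 0.26. The median of the 10 was 0.091 in that setting, beside −0.025 for all genes. A lone library is assumed in these fits to vary like the other groups.

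The interaction, the change with 4-OI under hemin minus that without it, passed for 0 transferases and 0% of all genes by limma, with an unadjusted p below 0.05 for Gsta3 and Mgst3 and for 5.01% of all genes. It was −1.13 ± 0.27 for Gsta3 (limma adjusted p = 0.854) and 0.43 ± 0.14 for Mgst3 (limma adjusted p = 0.854). Leaving out Hemin replicate 2 gave 1 higher and 5 lower, beside 989 genes higher (7.19%) and 1579 lower (11.5%) over the whole table, with Gsta3 at −1.29, Gstm1 at −1.04, Mgst1 at −1.03, Gsta4 at −0.88, Gstp1 at −0.44 and Mgst3 at 0.49. Leaving out Hemin replicate 1 gave 0 transferases and, over the whole table, 0 genes higher and 5 lower.

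**Figure D4:**
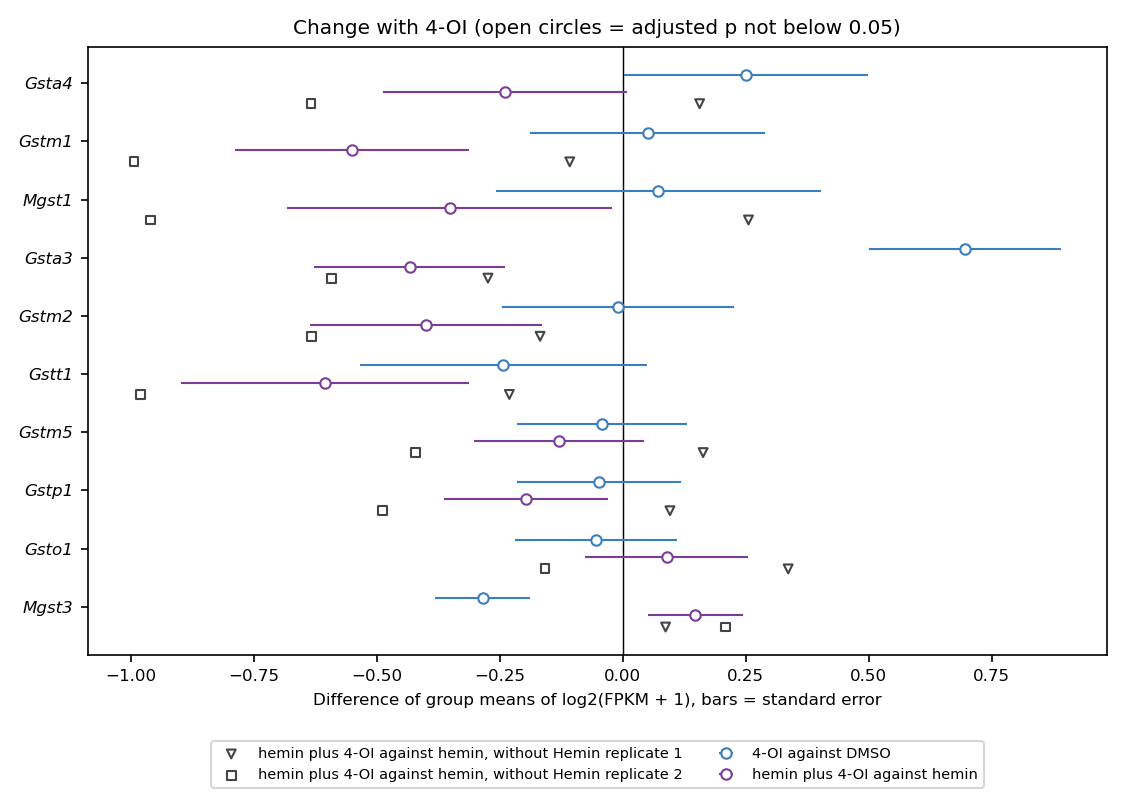
Difference of group means of log2(FPKM + 1) with its standard error for 4-OI against DMSO (blue) and hemin plus 4-OI against hemin (purple), with open circles because none passed. The grey symbols give the latter without Hemin replicate 1 (triangles) or without Hemin replicate 2 (squares), and for Mgst1 they lie at 0.26 and −0.96, with no calls marked on them.

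Hemin replicate 1 also exceeded Hemin replicate 2 for 9 of the 10 transferases, with a median ratio of 1.51, against 52.0% of all genes and a median of 1.02. Mgst3 was the exception (0.918). Markers of other cells also changed with hemin. The sums of astrocyte and microglia markers were higher in Hemin replicate 1, as given above, but that of endothelial markers was lower (8.83 FPKM against 12.95). All 9 astrocyte markers rose with hemin, their summed level going from 162.7 to 169.9 FPKM under DMSO and 164 to 167 under 4-OI to 389.8 to 876 under hemin and 357 to 363 under both. Of the 9 microglia markers 8 were tested and 7 rose, with sums of 57.5 to 62.5, 51.1 to 82.1, 109.6 to 339.8 and 112.5 to 112.6 FPKM in the same order. All 6 tested fibroblast and meninges markers rose (16.1 to 17.1, 15.9 to 19.2, 51.2 to 71.7 and 46.2 to 48.4 FPKM). Of the 10 neuron markers 7 fell (2469 to 2484, 2313 to 2414, 641 to 843 and 871 to 881 FPKM). Such sums are weighted to abundant markers. The fall of the neuron sum lay mostly in Tubb3 (means of 1179 FPKM under DMSO and 65.2 under hemin) and Stmn2 (622 and 272), while Map2, Snap25 and Gad2 did not pass. The rise of the microglia sum lay mostly in C1qa (28.8 and 107) and C1qb (17.9 and 68.8). These genes were named after their values were seen. Of 7 tested oligodendrocyte lineage markers 5 rose, as did all 3 tested choroid plexus and ependyma markers and Pecam1, the only endothelial marker tested, which passed the filter only through libraries with hemin, as did Tmem119 of the microglia, Sox10 and Cspg4 of the oligodendrocyte lineage and Pdgfrb of the fibroblast and meninges markers. With hemin plus 4-OI against 4-OI, 7 of 9 astrocyte, 0 of 8 microglia, 4 of 6 fibroblast and meninges, 3 of 7 oligodendrocyte lineage, 3 of 3 choroid plexus and ependyma and 1 of 1 endothelial markers rose, and 6 of 10 neuron markers fell. Over all genes 38.7% rose and 22.6% fell with hemin against DMSO. For hemin plus 4-OI against 4-OI these shares were 33.3% and 24.2%. Of the 1359 genes that passed the filter only through libraries with hemin, 1096 rose with hemin against DMSO. The part of the cell type markers in the changes of the transferases was not tested. Without Hemin replicate 1 the differences from DMSO stayed above 0 for Gsta3 (1.68), Gsta4 (2.20), Gstm1 (1.68), Gstm2 (1.20), Gstm5 (0.35) and Mgst1 (1.32). Mgst3 (−0.99) and Gsto1 (−0.47) stayed below 0, and Gstt1 and Gstp1 are given above. The median of the 10 transferases was 0.82 in that setting, beside 0.17 for all genes.

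**Figure D5:**
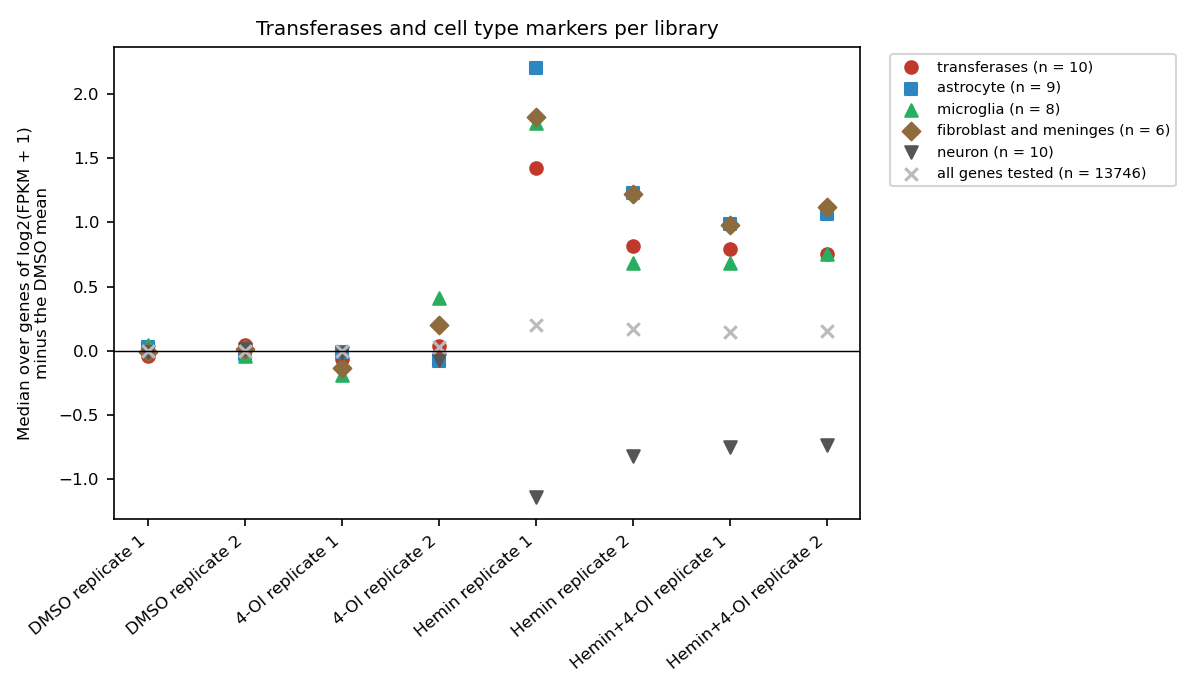
Median over genes of log2(FPKM + 1) minus the DMSO mean (vertical axis) in each of the 8 libraries, for the 10 transferases, markers of 4 cell types and all genes tested. In Hemin replicate 1 the astrocyte markers reach 2.20 and the transferases 1.42, against 1.23 and 0.82 in Hemin replicate 2.

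The genes whose levels followed the most abundant transferases most closely over the 8 libraries were looked up among 9221 named genes with a mean of at least 5 FPKM. For Gstm1 they were Rnase4, a secreted ribonuclease (Pearson r = 0.999), and Pbxip1 (0.998). For Gstp1 they were Ptgr2, a prostaglandin reductase (0.994), and Cndp2, a dipeptidase (0.986), and for Mgst3 Mta3 (0.992) and Cnih2, an auxiliary subunit of AMPA receptors (0.992). The 8 libraries are from 4 groups and include Hemin replicate 1, so these values only describe a shared pattern over the libraries. For Gstp1 that pattern was mainly Hemin replicate 1, with Gstp1 at 218, Ptgr2 at 11.72 and Cndp2 at 36.92 FPKM. In the other libraries Gstp1 was at 143.1 to 159.2, Ptgr2 at 3.86 to 5.17 and Cndp2 at 22.06 to 26.53 FPKM. Among the transferases r was 0.988 between Gstm1 and Mgst1, −0.973 between Gsta4 and Mgst3, and 0.407 between Gsto1 and Mgst3.

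Other glutathione transferases and genes listed with them as relatives, such as Alox5ap and Gstcd, were mostly low in the table. Of 20 listed genes 19 were present and 13 were tested, of which 8 rose with hemin and 0 fell (median 0.75, beside 0.19 for all genes), and 3 rose with hemin plus 4-OI against 4-OI. The shares of all genes that rose were 38.7% and 33.3%, so the second count is below its background. Gsta1, Gstm6, Gsto2, Gstt3, Hpgds and Ptges passed the filter only through libraries with hemin, which favours rises. Of these 6 genes 4 rose with hemin, beside 1096 of all 1359 genes that passed in that way. Of the other 7 genes 4 rose, beside 34.1% of the genes that passed without the hemin libraries. The mu genes Gstm4 and Gstm6 were among the 8. Gsto2, the neighbour of Gsto1, rose by 1.16 ± 0.20 (limma adjusted p = 0.0016), from 0.25 and 0.69 FPKM under DMSO to 2.38 and 2.12 under hemin. The kappa-class gene Gstk1 rose by 1.15 ± 0.24, Gstcd by 0.74 ± 0.22, and Hpgds, which makes prostaglandin D, by 1.00 ± 0.26. In the membrane family Ptges, a prostaglandin E synthase, rose by 1.31 ± 0.21, and Alox5ap, an activator of leukotriene synthesis known from myeloid cells, by 2.08 ± 0.52 with 12.1 FPKM in Hemin replicate 1 against 2.78 in Hemin replicate 2. Gsta1, Gstm7, Gstp2, Gstt3 and Gstz1 did not pass, and Gstz1, the zeta-class enzyme of tyrosine breakdown, was the most abundant of them at 12.5 and 13.0 FPKM under DMSO and 15.7 and 12.8 under hemin.

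Genes that supply, recycle and export glutathione were counted from lists in the same hemin against DMSO comparison, in which 38.7% of all genes rose and 22.6% fell. All 7 genes of glutathione synthesis and cysteine supply rose (median 1.85), among them both chains of the cystine importer, Slc3a2 (2.42 ± 0.09) and Slc7a11 (2.69 ± 0.14), and both subunits of glutamate-cysteine ligase, Gclc (1.85 ± 0.11) and Gclm (2.76 ± 0.18). Of 10 genes of glutathione reduction and peroxidases 6 rose and 1 fell (median 0.79). Glutathione reductase Gsr rose by 1.13 ± 0.16 and the peroxidases Gpx8 and Gpx3 by 1.83 ± 0.24 and 1.28 ± 0.23, and the mitochondrial glutaredoxin Glrx2 fell by 0.86 ± 0.13. Of 11 genes of glutathione breakdown 6 were tested, and 3 rose and 2 fell (median 0.43). Chac1, which degrades glutathione in the cytosol, rose by 2.65 ± 0.26 and Oplah by 1.23 ± 0.26, while Ggct fell by 0.73 ± 0.16 and Ggt7 by 0.49 ± 0.13. Of 7 pumps and transporters of conjugates 6 were tested and 5 rose (median 1.12), with Abcg2 at 1.28 ± 0.14, Abcc1 at 1.16 ± 0.16, Abcc4 at 1.52 ± 0.23 and Abcc5 at 0.67 ± 0.14. Abcc3, named for this reason, passed the filter only through libraries with hemin, which favours a rise. Of the other 5 pumps and transporters 4 rose, beside 34.1% of the genes that passed without the hemin libraries. Of 11 other NRF2-linked detoxification genes 10 were tested, 8 rose and 1 fell (median 2.17). Heme oxygenase Hmox1 (5.74 ± 0.28), thioredoxin reductase Txnrd1 (1.76 ± 0.09), sulfiredoxin Srxn1 (2.37 ± 0.21) and the epoxide hydrolase Ephx1 (2.08 ± 0.23) had the lowest p among those that rose, and the carbonyl reductase Cbr1 fell by 0.76 ± 0.20, named after its value was seen. With hemin plus 4-OI against 4-OI, 6 of 7 genes of synthesis and supply rose, 6 of 10 of reduction and peroxidases rose and 1 fell, 2 of 6 of breakdown rose, 3 of 6 of export rose, and 8 of 10 NRF2-linked genes rose and 1 fell. Over all genes 33.3% rose and 24.2% fell in that comparison, so the count for breakdown equals its background. No gene of these lists passed with 4-OI against DMSO or with hemin plus 4-OI against hemin, and neither did any gene tested (0%). With 4-OI against DMSO 3 of 10 NRF2-linked genes and 2 of 7 of synthesis and supply had an unadjusted limma p below 0.05. The other lists had 0, and over all genes the share was 1.30%. Medians were 0.34 for the NRF2-linked genes and 0.19 for synthesis and supply, beside 0.011 for all genes.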

How the data were processed

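Gene expression was measured by RNA sequencing of total RNA from 8 libraries, 2 per group. The authors deposited 1 table of FPKM values with 2 decimals. Per the submitters' processing notes, Bowtie2, RSEM and the build mm8 were used; versions and annotation were not given in the sources used here. FPKM depends on each library's total, so a large rise of some genes lowers others. Read counts were not analysed here, and no count model was applied. Columns were assigned to samples by the titles in the labels. Genes with at least 1 FPKM in at least 2 libraries (13746) were tested as log2(FPKM + 1) with limma 3.58.1 in R 4.3.3, with a mean per group over all 8 libraries and an intensity trend (4 residual and 4.28 prior degrees of freedom), two-sided, with Benjamini-Hochberg adjustment over all genes tested and a threshold of 0.05. The pooled spread includes that of the hemin pair.

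The procedure was tested on simulated data. Depth was estimated from the steps of low FPKM values of genes with 1 RefSeq transcript, and fragments behind a member from its longest transcript. Each result was recomputed with a pseudocount of 0.1, without the filter, with a filter at 5 FPKM, after median-of-ratios scaling or quantile normalization, with a replicate block, on the compared groups alone, without the intensity trend, and with each library left out. The members and lists were chosen with earlier results of these data known. Named genes were all members, all tested genes of the list of other transferases, up to 4 of each other pathway list with the lowest p under hemin, and for each of the 3 most abundant members the 2 genes with the highest correlation; others are marked as named after their values were seen. Windows of 50 bases and gene neighbours came from GENCODE M21 and RefSeq (GRCm38), used for sequence and order only. Python 3.11.15 (pandas 2.3.3, numpy 2.4.6) made the tables.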

Additional observations from a re-analysis of the deposited data

How the results depend on the processing

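Counts of transferases called, of 10, were 8 for hemin against DMSO, 7 for hemin plus 4-OI against 4-OI and 0 for the others. In the same order 61.3%, 57.5% and 0% of all genes were called. With the replicate block the counts of transferases were again 8, 7 and 0. The numbers of the libraries are not stated to pair them, and deviations of same-numbered libraries correlated between −0.090 and 0.052. The count for hemin against DMSO was 5 with the filter at 5 FPKM, which left 7 members to test. Of these members 4 rose and 1 fell, beside 34.9% and 27.6% of all genes tested with that filter. Leaving out single libraries gave 0 to 6 for hemin plus 4-OI against hemin and for the interaction, with 6 only without Hemin replicate 2. Of single changes, Gstm2 with 4-OI was 0.021 with a pseudocount of 0.1, and Gstp1 for hemin plus 4-OI against 4-OI was −0.043 with median-of-ratios scaling. Leaving out single libraries, changes that crossed 0 ranged as follows. For hemin against DMSO Gstp1 ranged from −0.032 to 0.55 and Gsto1 from −0.47 to 0.027. For 4-OI against DMSO Gsta4 ranged from −0.014 to 0.51, Gstm1 from −0.023 to 0.12, Gstm2 from −0.27 to 0.25, Gstm5 from −0.097 to 0.012, Gstp1 from −0.10 to 0.0041, Gsto1 from −0.20 to 0.087, Gstt1 from −0.58 to 0.094 and Mgst1 from −0.12 to 0.26. For hemin plus 4-OI against hemin Gsta4 ranged from −0.63 to 0.16, Gstm5 from −0.42 to 0.16, Gstp1 from −0.49 to 0.096, Gsto1 from −0.16 to 0.34 and Mgst1 from −0.96 to 0.26. For hemin plus 4-OI against 4-OI Gsto1 ranged from −0.22 to 0.065. For the interaction Gstm5 ranged from −0.38 to 0.21, Gstp1 from −0.44 to 0.14, Gsto1 from −0.10 to 0.39, Gstt1 from −0.74 to 0.012 and Mgst1 from −1.03 to 0.18. The cause of these changes was not tested. Of the 77 values for hemin against DMSO under the other alternatives, 71 kept direction and call, 5 lost the call and 1 gained it. Depth limits Gsta3, Gstm2 and Gstt1, which rest on few fragments without hemin.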
